A study of Mus musculus with 11 samples.

Results

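The mitosis genes described here are 39 genes that carry a cell from G2 phase through division, out of 24974 genes in a deposited expression table. They were chosen by symbol as kinases, cyclins and phosphatases of G2 and M phase and as parts of the kinetochore, the spindle and the machinery of cytokinesis. All 39 were in the table, and none was at 0 in any library. Ribosomal RNA-depleted total RNA was sequenced from 5 tumors and 3 skins of mice with a conditional knockout of Dlx3 (Dlx3 KO) and from 3 skins of wild-type (WT) mice. Dlx3 is a homeobox transcription factor of the differentiating epidermis and the hair follicle. All 3 groups, WT skin included, received DMBA, a mutagenic hydrocarbon used to induce skin tumors in mice. It was put on the back 3 times, 1 week apart, at 100 µg per 200 µl, and tissue was taken at week 31. The Dlx3 KO skin was unaffected whole skin. The Cre driver, strain, age and sex are not given in the labels, which also do not say whether tumors and skins came from the same animals. The p-values below therefore measure the spread between these samples, some of which may share an animal.

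Cdk1 bound to cyclin B starts mitosis, after Cdc25 phosphatases remove its inhibitory phosphates. Kinetochores then tie chromosomes to spindle microtubules, the spindle checkpoint holds back the anaphase-promoting complex until all are attached, and Cdc20 and Ube2c let that complex mark cyclin B for destruction. In normal skin, dividing cells lie mainly in the basal layer of the epidermis and in the matrix of growing hair follicles, and the transcripts of mitosis genes peak together in G2 and M phase.

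The libraries held 29265111 to 75707445 alignments, so that 1 RPKM (reads per kilobase of gene, scaled to the number of mapped reads) stood for 29.3 to 75.7 reads on 1 kb. Dlx3 was at 1.34 to 7.61 RPKM in the tumors, at 4.08 to 8.88 RPKM in Dlx3 KO skin, and at 49.9, 7.35 and 89.9 RPKM in WT skins 1 to 3. For the targeted gene, the library labelled WT skin 2 was therefore inside the Dlx3 KO skin range, and every direction drawn against WT skin includes it. A sample sheet places WT skins 1 and 3, the library labelled WT skin 2, Dlx3 KO skins 2 and 3 and tumor 5 in a first run, and tumors 1 to 4 and Dlx3 KO skin 1 in a second. Rn45s, a ribosomal RNA precursor, was at 11830 RPKM in tumor 5 and 10020 RPKM in WT skin 1, against 612 to 3242 RPKM elsewhere. Xist, the transcript of the inactive X chromosome, was below 1 RPKM in tumors 3 and 4 and WT skins 1 and 3 and at 10.1 to 21.97 RPKM in the other libraries.

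Mitosis genes were highest in the tumors and lowest in Dlx3 KO skin, and WT skin spanned both. The mean log2(RPKM + 0.5) of the 39 genes was 2.75, 2.74, 3.27, 2.83 and 3.12 in tumors 1 to 5. It was 1.77, 2.51 and 2.30 in Dlx3 KO skins 1 to 3. It was 2.55, 2.15 and 3.19 in WT skins 1 to 3. Every tumor lay above every Dlx3 KO skin on this mean, whereas WT skin 3 lay above all tumors but tumor 3, and the library labelled WT skin 2 lay below Dlx3 KO skins 2 and 3. In bulk tissue, fewer dividing cells and less RNA of these genes per cell cannot be told apart.

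The libraries at the extremes were nearly the same for all members. Dlx3 KO skin 1 held the lowest of the 11 values for 33 of the 39 genes and was the lowest Dlx3 KO skin for 38, the exception being Kif4. Tumor 3 held the highest value for 14 genes, WT skin 3 for 13 and tumor 5 for 9. WT skin 3 was the highest WT skin for 38 genes, the exception being Birc5, and exceeded every Dlx3 KO skin for 39 and the median tumor for 33. The library labelled WT skin 2 was the lowest of its group for 31 genes and at or below the highest Dlx3 KO skin for 34.

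**Figure D1:**
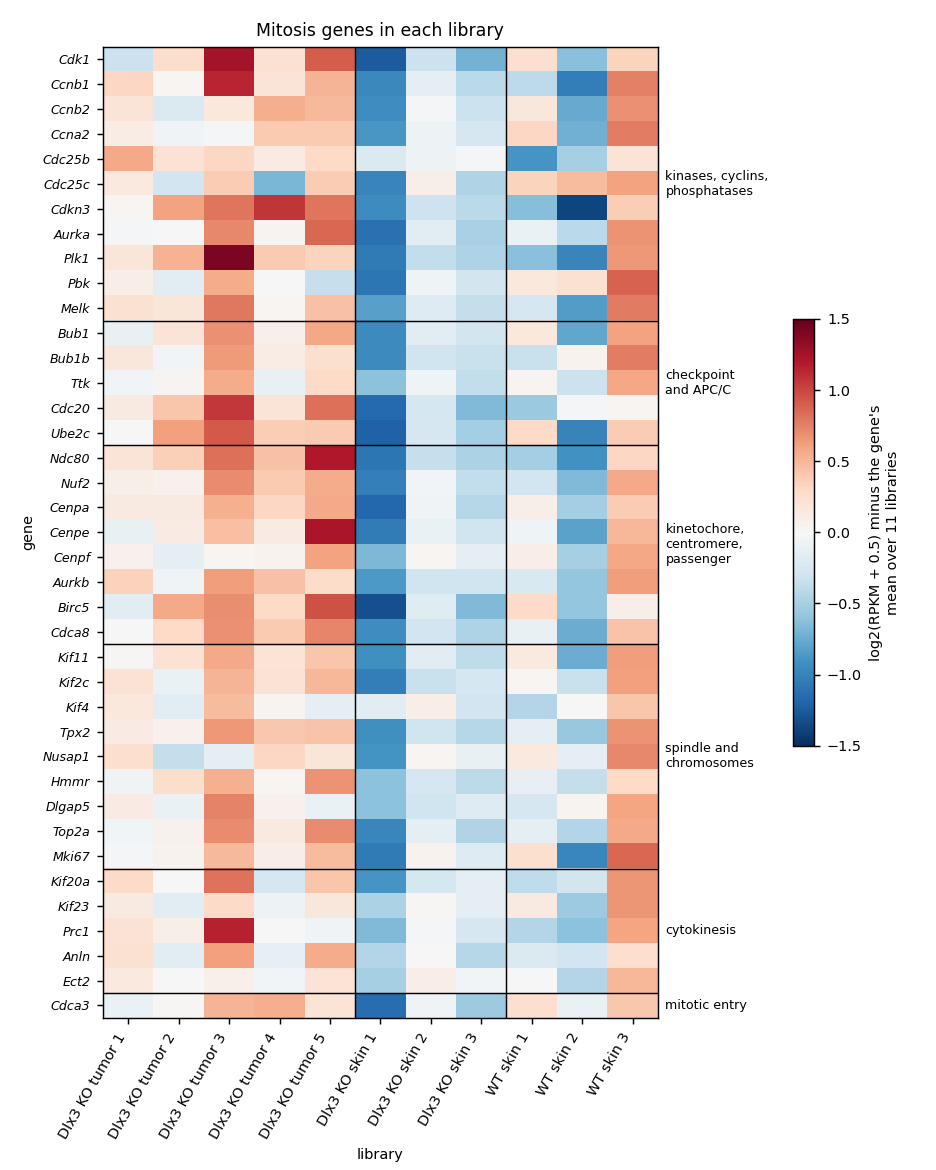
Each row is 1 of the 39 mitosis genes, grouped by role, and each column is 1 of the 11 libraries; color gives log2(RPKM + 0.5) minus the mean of that gene over the 11 libraries. Dlx3 KO skin 1, the lowest library for 33 genes, is blue nearly throughout, and tumor 3, tumor 5 and WT skin 3 hold most of the dark red cells.

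Levels differed more between genes than between groups. Mean RPKM over the 11 libraries ran from 1.79 for Bub1, a checkpoint kinase, to 42.4 for Ube2c, the ubiquitin-conjugating enzyme of the anaphase-promoting complex, with a median of 5.0 over the 39 genes. Cdc20, the activator of that complex, came next at 31.0 RPKM, followed by Cenpa, the histone H3 variant of centromeres, at 17.0 RPKM. Single values ran from 0.614 RPKM (Bub1 in Dlx3 KO skin 1) to 73.5 RPKM (Ube2c in tumor 3). Within a group, the highest library exceeded the lowest by a median of 1.75 times in tumors, 1.86 times in Dlx3 KO skin and 2.31 times in WT skin.

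**Figure D2:**
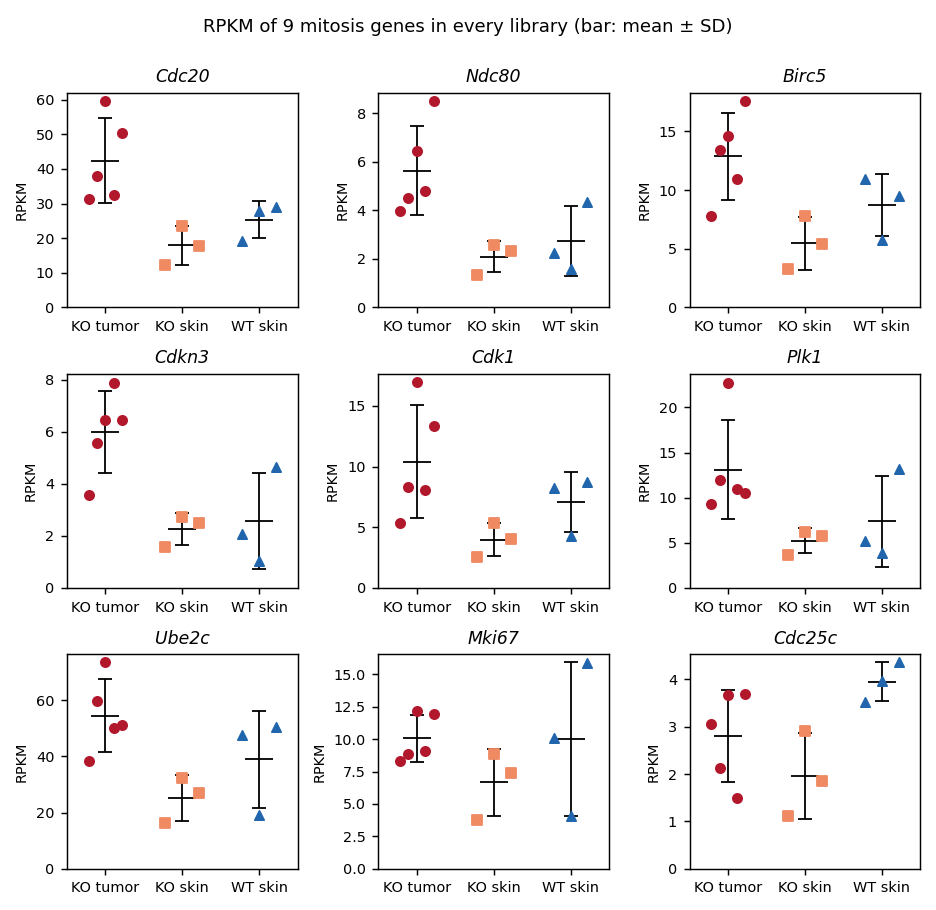
Points give RPKM in each library for 9 mitosis genes, with Dlx3 KO tumors left, Dlx3 KO skin in the middle and WT skin right, and bars give the group mean ± SD. For Cdc20 the 5 tumors lie above all 6 skins, with 31.2 RPKM the lowest tumor and 29.0 RPKM the highest skin.

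Tumors were first set against Dlx3 KO skin, a comparison named in the study's design. Cdc20, Ndc80 and Birc5, which act in the spindle checkpoint and at the kinetochore, rose in tumors by log2 fold changes of 1.19 to 1.24, and the other 36 members lay higher on average without passing the test. Fold changes are on the log2(RPKM + 0.5) scale, which understates changes of low genes. The 3 called members were 3 of 39 (7.69%), where 0.998% of the 14233 genes tested were called higher and 6.56% lower. The groups did not overlap, all tumors being higher, for 23 members (59.0%) against 4.65% of all genes. The fold change was above 0 for 39 of 39 members and for 29.7% of all genes, with 70.3% of all genes below 0, and the median log2 fold change was 0.78 over the members and -0.23 over all genes. An unadjusted p under 0.05 was reached upward by 24 members (61.5%) and by 4.40% of all genes.

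Cdc20, which switches the anaphase-promoting complex on at the end of metaphase, had 31.2, 37.9, 59.7, 32.5 and 50.5 RPKM in tumors 1 to 5, against 12.3, 23.5 and 17.7 RPKM in Dlx3 KO skins 1 to 3. Tumors 3 and 5 were highest, and the lowest tumor lay above the highest Dlx3 KO skin. Cdc20 averaged 42.4 ± 12.3 RPKM in tumors and 17.9 ± 5.60 RPKM in Dlx3 KO skin (SD, n = 5 and n = 3), a log2 fold change of 1.22 ± 0.28 (SE) with an adjusted p of 0.0248 (limma, Benjamini and Hochberg). The gene lies on chromosome 4, bases 118432901 to 118437352, minus strand (GENCODE M21, GRCm38).

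Ndc80, the kinetochore protein that grips microtubules, had 3.96, 4.52, 6.44, 4.80 and 8.5 RPKM in tumors 1 to 5, against 1.35, 2.58 and 2.31 RPKM in Dlx3 KO skins 1 to 3. Tumor 5 was highest and the groups did not overlap. Its log2 fold change was 1.24 ± 0.32 (SE), with an adjusted p of 0.0393 (limma, Benjamini and Hochberg). It lies on chromosome 17, bases 71496100 to 71526857, minus strand. Birc5 (survivin), a subunit of the chromosomal passenger complex that corrects faulty attachments, had 7.81, 13.4, 14.6, 10.97 and 17.6 RPKM in tumors 1 to 5, against 3.25, 7.76 and 5.39 RPKM in Dlx3 KO skins 1 to 3. Tumor 1, the lowest tumor, stood just above Dlx3 KO skin 2. The log2 fold change of Birc5 was 1.19 ± 0.32 (SE), with an adjusted p of 0.0468 (limma, Benjamini and Hochberg), and the gene lies on chromosome 11, bases 117849251 to 117855743, plus strand.

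The count of 3 depended on single libraries. It was 0 without tumor 2, tumor 3, Dlx3 KO skin 1 or Dlx3 KO skin 3, and 1 without tumor 4, tumor 5, Dlx3 KO skin 2 or WT skin 1. It was 12 without tumor 1 and 6 without the library labelled WT skin 2 or without WT skin 3. Calls over all genes moved too, from 1075 of 14233 with every library to 2867 without tumor 1. They were 550, 559, 548 and 347 without tumor 2, tumor 3, Dlx3 KO skin 1 and Dlx3 KO skin 3. Without the library labelled WT skin 2 and without WT skin 3 they were 1079 and 883. Cdc20 was called in 7 of these 11 fits, Ndc80 in 3 and Birc5 in 2, while the fold change stayed above 0 for all 39 members in each of the 11. Scaling each library by median ratios moved the median of all genes to 0.02 and that of the members to 1.02, with 14 members and 1141 of 14233 genes called. Quantile normalization moved them to 0.09 and 1.10, with 21 members and 1121 genes called. The members' median thus stood about 1 above that of all genes under each of these scalings.

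Values within runs can be set beside the pooled ones. In the first run alone, tumor 5 against Dlx3 KO skins 2 and 3, the members' median log2 fold change was 0.71 and 37 of 39 were above 0, with Pbk at -0.17 and Kif4 at -0.053. In the second run alone, tumors 1 to 4 against Dlx3 KO skin 1, the median was 1.199 and 39 of 39 were above 0. The median of all genes was -0.56 in the first run alone and -0.08 in the second. Each run alone has 1 library in one group, so only fold changes are given for them. With run as a term in the fit, 10 members were called.

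**Figure D3:**
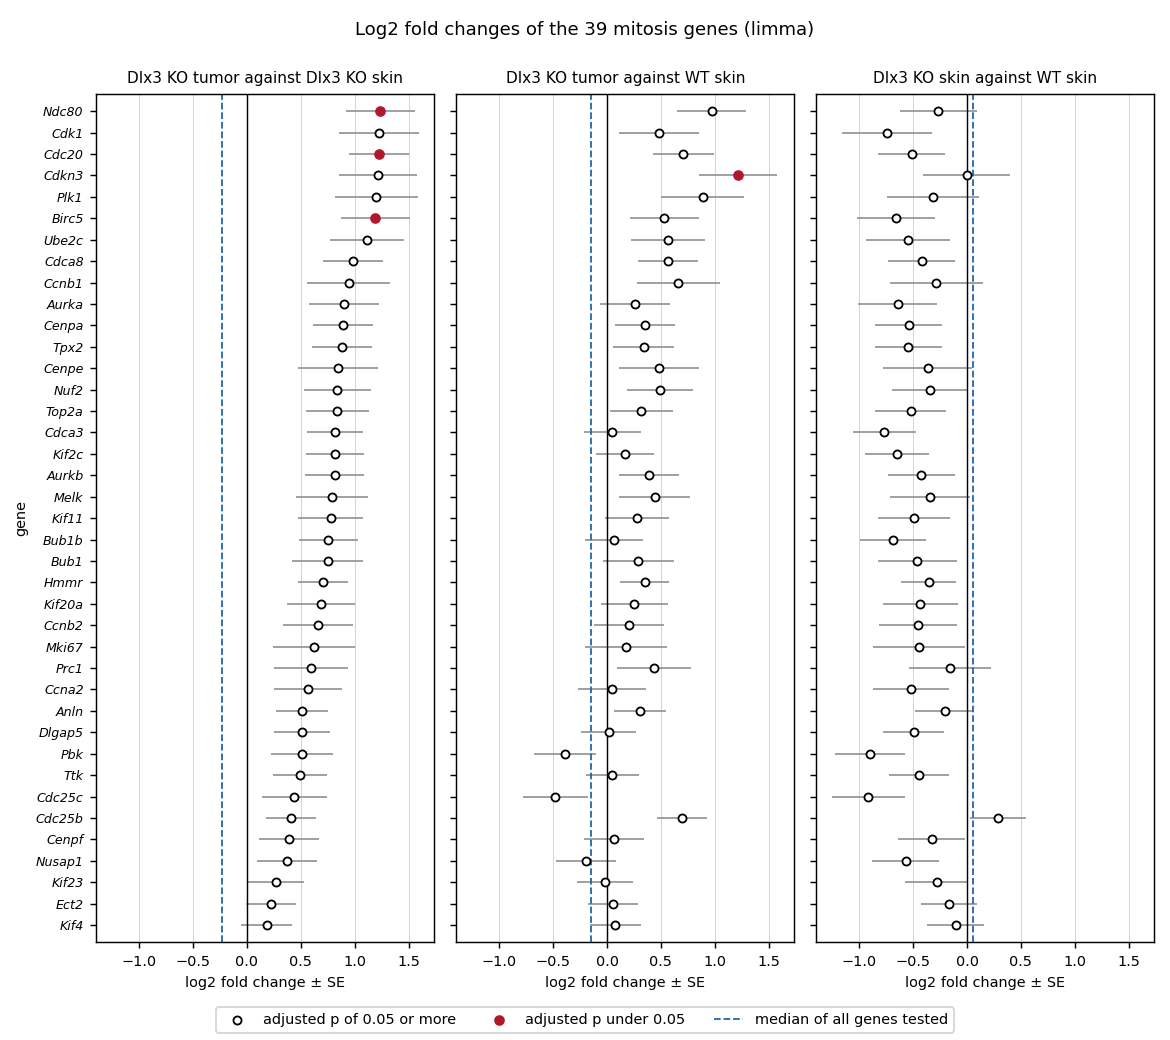
Points give the log2 fold change of each of the 39 mitosis genes with its standard error as a bar, for tumors against Dlx3 KO skin, tumors against WT skin and Dlx3 KO skin against WT skin; filled points passed the test. The dashed line is the median of all genes; in the first comparison all 39 points lie right of 0, between 0.18 and 1.24, and the 3 filled ones are Cdc20, Ndc80 and Birc5.

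The promoters of these genes were read because the members moved together between libraries. Many mammalian genes of G2 and M phase carry near their start a cell-cycle homology region (CHR), bound by the DREAM and MuvB complexes, and CCAAT boxes, bound by NF-Y. RefSeq windows of 250 bases before to 50 after the gene start (GRCm38.p6, the build mm10 names) were found for 32 of the 39 members. The letters TTTGAA or TTCGAA, searched on both strands as the CHR, were in 26 of the 32 windows (81.2%) and in 19.4% of the windows of 27025 genes. In the last 100 bases, around the start, they were in 71.9% of members' windows and 5.29% of all. CCAAT, on both strands, was in 78.1% of members' windows and 37.9% of all, and both motifs stood together in 71.9% and 7.70%. TTCGCGC or TTGGCGC, searched on both strands as E2F sites, was in 15.6% and 3.98%, and TTGGCGC can share bases with CCAAT on the other strand. The windows of all genes were not matched for base composition, and such a match describes letters and not a bound site.

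The windows printed here are those of the members called in tumors, with Kif4, the member that differed least between tumors and Dlx3 KO skin, for comparison. Capitals mark the CHR letters and CCAAT on either strand (TTCAAA and ATTGG are their reverse complements), and each window is written along the strand of its gene. Cdc20 is read from chr4:118437294-118437593 (minus), Ndc80 from chr17:71526808-71527107 (minus), Birc5 from chr11:117848987-117849286 (plus), Cdkn3 from chr14:46760291-46760590 (plus) and Kif4 from chrX:100625815-100626114 (plus).
Cdc20: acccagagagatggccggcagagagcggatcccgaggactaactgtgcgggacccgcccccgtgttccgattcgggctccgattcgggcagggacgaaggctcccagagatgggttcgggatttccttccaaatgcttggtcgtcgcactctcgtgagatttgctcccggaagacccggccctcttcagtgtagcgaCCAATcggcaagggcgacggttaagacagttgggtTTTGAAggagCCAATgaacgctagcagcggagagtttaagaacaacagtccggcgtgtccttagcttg
Ndc80: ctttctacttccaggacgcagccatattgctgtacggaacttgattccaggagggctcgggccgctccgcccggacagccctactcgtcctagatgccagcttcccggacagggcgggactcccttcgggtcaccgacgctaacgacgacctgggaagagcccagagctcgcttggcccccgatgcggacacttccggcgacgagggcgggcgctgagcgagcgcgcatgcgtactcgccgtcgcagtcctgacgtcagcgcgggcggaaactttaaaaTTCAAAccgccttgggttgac
Birc5: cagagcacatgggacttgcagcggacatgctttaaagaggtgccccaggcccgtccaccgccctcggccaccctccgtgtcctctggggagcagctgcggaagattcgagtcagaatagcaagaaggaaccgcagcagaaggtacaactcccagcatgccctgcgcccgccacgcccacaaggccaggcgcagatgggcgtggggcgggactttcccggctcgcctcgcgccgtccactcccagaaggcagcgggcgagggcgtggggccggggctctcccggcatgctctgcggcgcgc
Cdkn3: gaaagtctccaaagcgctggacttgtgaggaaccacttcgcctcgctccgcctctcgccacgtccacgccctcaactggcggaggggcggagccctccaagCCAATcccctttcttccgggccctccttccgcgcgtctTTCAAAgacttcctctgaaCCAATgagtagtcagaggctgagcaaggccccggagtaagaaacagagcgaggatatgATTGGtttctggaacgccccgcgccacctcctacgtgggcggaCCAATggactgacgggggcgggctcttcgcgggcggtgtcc
Kif4: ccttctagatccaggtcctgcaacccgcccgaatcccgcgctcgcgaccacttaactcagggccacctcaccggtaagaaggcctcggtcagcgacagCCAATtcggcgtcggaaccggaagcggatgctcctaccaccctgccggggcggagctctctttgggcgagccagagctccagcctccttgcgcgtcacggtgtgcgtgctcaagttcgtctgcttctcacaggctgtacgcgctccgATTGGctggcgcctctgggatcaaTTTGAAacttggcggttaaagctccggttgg
In the Cdc20 window a CHR starts 18 bases before the gene start and stands between CCAAT boxes 53 and 8 bases before it. Ndc80 holds 1 CHR, on the opposite strand and 30 bases inside the gene, and no CCAAT. Cdkn3 holds 1 CHR and 4 CCAAT, and Kif4, whose level differed least, holds 1 CHR and 2 CCAAT. The Birc5 window holds neither string of letters.

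**Figure D4:**
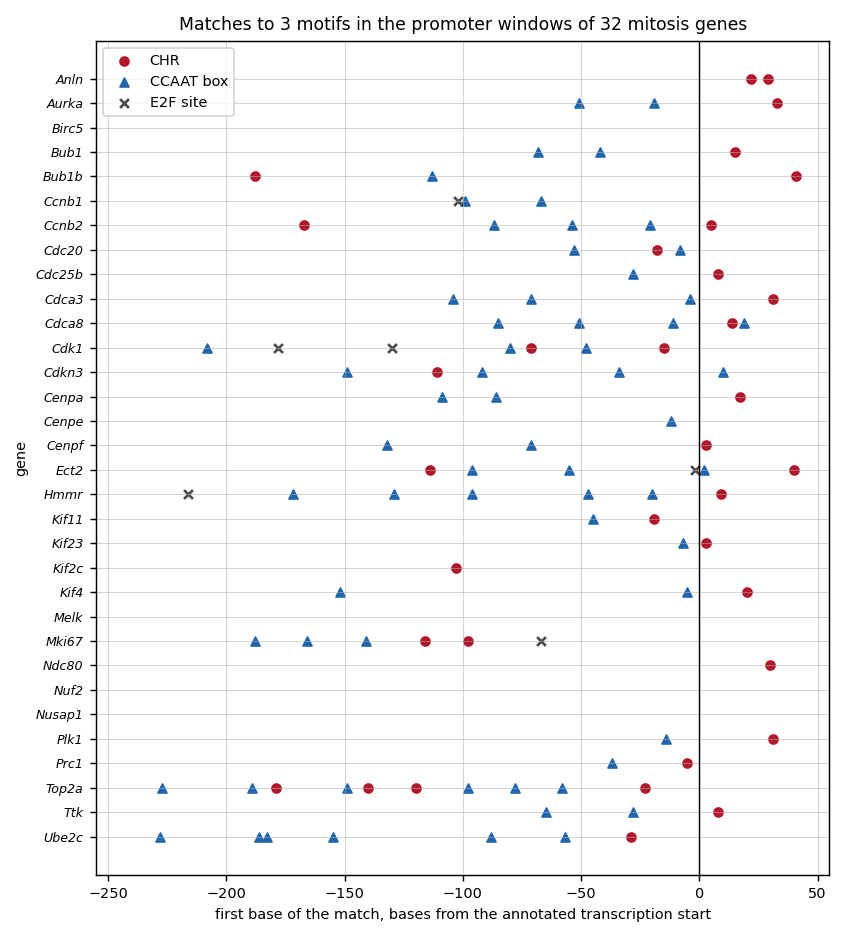
Marks give the first base of each CHR, CCAAT and E2F match relative to the gene start (bases) in the RefSeq windows of the 32 mitosis genes that have one. CHR matches gather around the start, where 71.9% of members' windows hold one in the last 100 bases, against 5.29% of all genes.

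Among the 11 kinases, cyclins and phosphatases of G2 and M phase, none passed the test between tumors and Dlx3 KO skin. For 7 of them the groups did not overlap, 6 reached an unadjusted p under 0.05, and the median log2 fold change was 0.79 (0.41 to 1.22). Over all genes, 4.65% had separate groups with tumors higher and 4.40% were higher at an unadjusted p under 0.05 (limma). The same shares are the background for the counts of the other roles below. Cdk1, the kinase that starts mitosis, had 5.36, 8.33, 16.9, 8.09 and 13.3 RPKM in tumors 1 to 5, against 2.58, 5.37 and 4.0 RPKM in Dlx3 KO skins 1 to 3. Tumor 1 lay just under Dlx3 KO skin 2, so the groups overlapped, and the log2 fold change of 1.22 ± 0.37 (SE) had an adjusted p of 0.0696 (limma, Benjamini and Hochberg). Plk1, a kinase of mitotic entry and spindle assembly, had 9.34, 12.0, 22.7, 10.9 and 10.5 RPKM in tumors 1 to 5, against 3.68, 6.24 and 5.80 RPKM in Dlx3 KO skins 1 to 3. All tumors were higher, with tumor 3 far above the rest, and the adjusted p was 0.0806 (limma, Benjamini and Hochberg). Aurka, the centrosome and spindle pole kinase, averaged 9.15 ± 3.01 RPKM in tumors and 4.66 ± 1.64 RPKM in Dlx3 KO skin (SD, n = 5 and n = 3).

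Of the cyclins that partner Cdk1, Ccna2 (cyclin A2) had 9.02, 8.02, 8.23, 11.1 and 11.1 RPKM in tumors 1 to 5, against 4.32, 7.89 and 6.93 RPKM in Dlx3 KO skins 1 to 3. The groups were separate only by the gap between tumor 2 and Dlx3 KO skin 2, and the adjusted p was 0.285 (limma, Benjamini and Hochberg). Ccnb1 (cyclin B1) was at 9.70 to 21.5 RPKM in tumors and 4.60 to 8.56 RPKM in Dlx3 KO skin, without overlap, and Ccnb2 (cyclin B2) at 9.59 to 16.5 RPKM and 5.65 to 11.1 RPKM, with overlap. Cdc25b, the phosphatase that first activates Cdk1, was at 10.5 to 11.9 RPKM in Dlx3 KO skin and at 13.4 to 18.4 RPKM in tumors. Its highest Dlx3 KO skin exceeded its lowest by 1.14 times, the smallest such ratio of all members. The log2 fold change of Cdc25b was 0.41 ± 0.23 (SE), with an adjusted p of 0.291 (limma, Benjamini and Hochberg).

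Of the 5 genes of the spindle checkpoint and the anaphase-promoting complex, Cdc20 was the 1 called, and the groups were separate for 4, with a median log2 fold change of 0.75. Ube2c had 38.5, 59.6, 73.5, 50.1 and 51.1 RPKM in tumors 1 to 5, against 16.4, 32.4 and 27.1 RPKM in Dlx3 KO skins 1 to 3. All tumors were higher, and the log2 fold change of 1.11 ± 0.34 (SE) had an adjusted p of 0.0746 (limma, Benjamini and Hochberg). The checkpoint kinases Bub1 and Bub1b (BubR1) had separate groups with log2 fold changes of 0.75 each. Ttk (Mps1), the kinase that starts checkpoint signalling, overlapped between the groups, with 2.71 to 4.61 RPKM in tumors and 1.77 to 2.82 RPKM in Dlx3 KO skin.

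Kinetochore, centromere and passenger genes had the highest median of the roles with several members, 0.87 over 8 genes, with 2 called, 6 separate and 7 at an unadjusted p under 0.05. Cdca8 (borealin), a further passenger subunit, had 15.5, 19.1, 25.0, 20.4 and 25.8 RPKM in tumors 1 to 5, against 7.81, 12.5 and 11 RPKM in Dlx3 KO skins 1 to 3. The groups were separate, and the log2 fold change of 0.99 ± 0.28 (SE) just missed the threshold with an adjusted p of 0.0534 (limma, Benjamini and Hochberg). Aurkb, the kinase of the same complex, averaged 9.36 ± 1.65 RPKM in tumors and 5.14 ± 1.18 RPKM in Dlx3 KO skin (SD, n = 5 and n = 3). Nuf2, which forms 1 complex with Ndc80, had separate groups with a log2 fold change of 0.84. Cenpe, a kinetochore motor, and Cenpf, a large kinetochore protein, overlapped between the groups, and tumor 5 was highest for both, at 5.46 and 3.03 RPKM.

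Of the 9 genes of the spindle and of chromosomes none was called, 6 had separate groups and 5 reached an unadjusted p under 0.05, with a median log2 fold change of 0.71. Top2a, which untangles sister chromatids, had 13.1, 14.1, 22.4, 14.9 and 22.4 RPKM in tumors 1 to 5, against 6.58, 12.2 and 9.73 RPKM in Dlx3 KO skins 1 to 3. Tumors 3 and 5 were highest and the groups were separate. Mki67, the antigen commonly stained to count cycling cells, had 8.35, 8.85, 12.2, 9.12 and 12.0 RPKM in tumors 1 to 5, against 3.80, 8.82 and 7.37 RPKM in Dlx3 KO skins 1 to 3. Dlx3 KO skin 2 lay between tumors 1 and 2, and the log2 fold change of 0.62 ± 0.38 (SE) had an adjusted p of 0.328 (limma, Benjamini and Hochberg). Kif4, a chromosome motor, differed least of the 39, with 1.69 to 2.92 RPKM in tumors, 1.53 to 2.15 RPKM in Dlx3 KO skin and a log2 fold change of 0.18.

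The 5 cytokinesis genes had the lowest median, 0.51, with none called and none with separate groups. Prc1, which bundles the midzone microtubules, had 8.73, 7.90, 17.2, 7.43 and 7.16 RPKM in tumors 1 to 5, against 4.52, 7.28 and 6.15 RPKM in Dlx3 KO skins 1 to 3. Tumor 3 alone stood well above the skins. Ect2, the exchange factor that activates RhoA at the cleavage site, and Kif23, a motor of the midzone, had log2 fold changes of 0.22 and 0.27. Cdca3, known in Xenopus to promote destruction of the mitotic inhibitor Wee1, had 13.8 to 21.8 RPKM in tumors and 6.45 to 14.2 RPKM in Dlx3 KO skin, and overlapped by tumor 1. Differences between the roles were not tested.

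Relative to the mean of the other members in the same library, most genes showed no split between tumors and skins. Ndc80 was higher relative to the others in every tumor, at -0.61 to 0.05 on the log2 scale, than in every Dlx3 KO and WT skin, at -1.12 to -0.83. Ttk was lower in every tumor, at -1.18 to -0.94, than in every skin, at -0.90 to -0.60. No other member was separate in this way, and these are descriptions without a test.

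Tumors were next set against WT skin. Cdkn3, a phosphatase that removes the activating phosphate of cyclin-dependent kinases, rose in tumors and was the only member called, 1 of 39 (2.56%), where 3.56% of all genes were called higher. That share was no higher than over all genes. The fold change was above 0 for 35 of 39 members and for 38.4% of all genes, with medians of 0.31 over the members and -0.14 over all genes. Groups were separate for Cdc20 alone, all tumors being higher, against 3.89% of all genes, and 5 members (12.8%) reached an unadjusted p under 0.05 upward, against 7.76% of all genes. Without the library labelled WT skin 2, 24 of 39 members lay above 0 and their median was 0.079. All 3 WT skins were in the first run and 4 of the 5 tumors in the second. With run as a term in the fit, the members' median was 0.61, Cdkn3 was not called and Ndc80 was the 1 member called (limma). In the first run alone, with tumor 5 as the only tumor, the median was 0.50.

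Cdkn3 had 3.58, 5.57, 6.47, 7.89 and 6.45 RPKM in tumors 1 to 5, against 2.06, 1.04 and 4.64 RPKM in WT skins 1 to 3. WT skin 3 lay above tumor 1, so the groups overlapped, and the library labelled WT skin 2 was lowest. The log2 fold change was 1.21 ± 0.36 (SE), with an adjusted p of 0.0430 (limma, Benjamini and Hochberg), and it was 1.22 with an adjusted p of 0.0650 against Dlx3 KO skin. Cdkn3 lies on chromosome 14, bases 46760541 to 46771669, plus strand. The call was kept in 2 of the 11 fits that left out a library, those without tumor 1 and without WT skin 3.

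Next by p against WT skin were Ndc80 and Cdc25b. Ndc80 had 3.96 to 8.5 RPKM in tumors, against 2.25, 1.59 and 4.35 RPKM in WT skins 1 to 3, and WT skin 3 lay above tumor 1. Its log2 fold change of 0.97 ± 0.32 (SE) had an adjusted p of 0.0622 (limma, Benjamini and Hochberg). Cdc25b had 13.4 to 18.4 RPKM in tumors, against 6.37, 8.49 and 14.2 RPKM in WT skins 1 to 3, and a log2 fold change of 0.70 ± 0.23 (SE). Cdc20 had 19.1, 27.8 and 29.0 RPKM in WT skins 1 to 3, all below the lowest tumor, with an adjusted p of 0.113 (limma, Benjamini and Hochberg). The 4 members below 0 in this comparison were Cdc25c, Pbk, Nusap1 and Kif23, with log2 fold changes of -0.48, -0.39, -0.20 and -0.015.

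Dlx3 KO skin was then set against WT skin, the other comparison of the study's design. No member passed the test, and none of the 14233 genes did (0.00% called higher and 0.00% lower with limma, Benjamini and Hochberg). The fold change was below 0 for 38 of 39 members and for 43.3% of all genes, and above 0 for 1 member, Cdc25b at 0.29, and for 56.7% of all genes. The median log2 fold change was -0.44 over the members and 0.06 over all genes. At an unadjusted p under 0.05, 4 members were lower (10.3%), against 3.41% of all genes, and 0 were higher. Groups were separate, with Dlx3 KO skin lower, for Pbk and Cdc25c (5.13%), against 5.10% of all genes.

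Pbk, a mitotic kinase, had 2.84, 6.23 and 5.32 RPKM in Dlx3 KO skins 1 to 3, against 7.36, 7.76 and 12.6 RPKM in WT skins 1 to 3. Each WT skin, the library labelled WT skin 2 included, lay above each Dlx3 KO skin. The log2 fold change was -0.90 ± 0.32 (SE), with an adjusted p of 0.432 (limma, Benjamini and Hochberg). Cdc25c, a phosphatase that activates Cdk1, had 1.11, 2.92 and 1.85 RPKM in Dlx3 KO skins 1 to 3, against 3.53, 3.96 and 4.36 RPKM in WT skins 1 to 3. These groups were also separate, with a log2 fold change of -0.92 ± 0.34 (SE) and an adjusted p of 0.452 (limma, Benjamini and Hochberg). Separate groups with Dlx3 KO skin lower were about as frequent among the members as over all genes (5.13% against 5.10%). The other 2 members lower at an unadjusted p under 0.05 (limma) were Cdca3 at -0.77 and Bub1b at -0.69.

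The size of this difference depended on the libraries at the extremes. The members' median was -0.24 without Dlx3 KO skin 1, with 35 of 39 below 0. Dlx3 KO skin 1 was the only skin of the second run, so among the skins its library and the run cannot be told apart. With run as a term in the fit, the members' median was -0.30, with 37 of 39 below 0. The median was -0.15 without WT skin 3, with 29 of 39 below 0, and -0.71 without the library labelled WT skin 2. All 3 comparisons share groups with one another, so their fold changes are not independent.

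**Figure D5:**
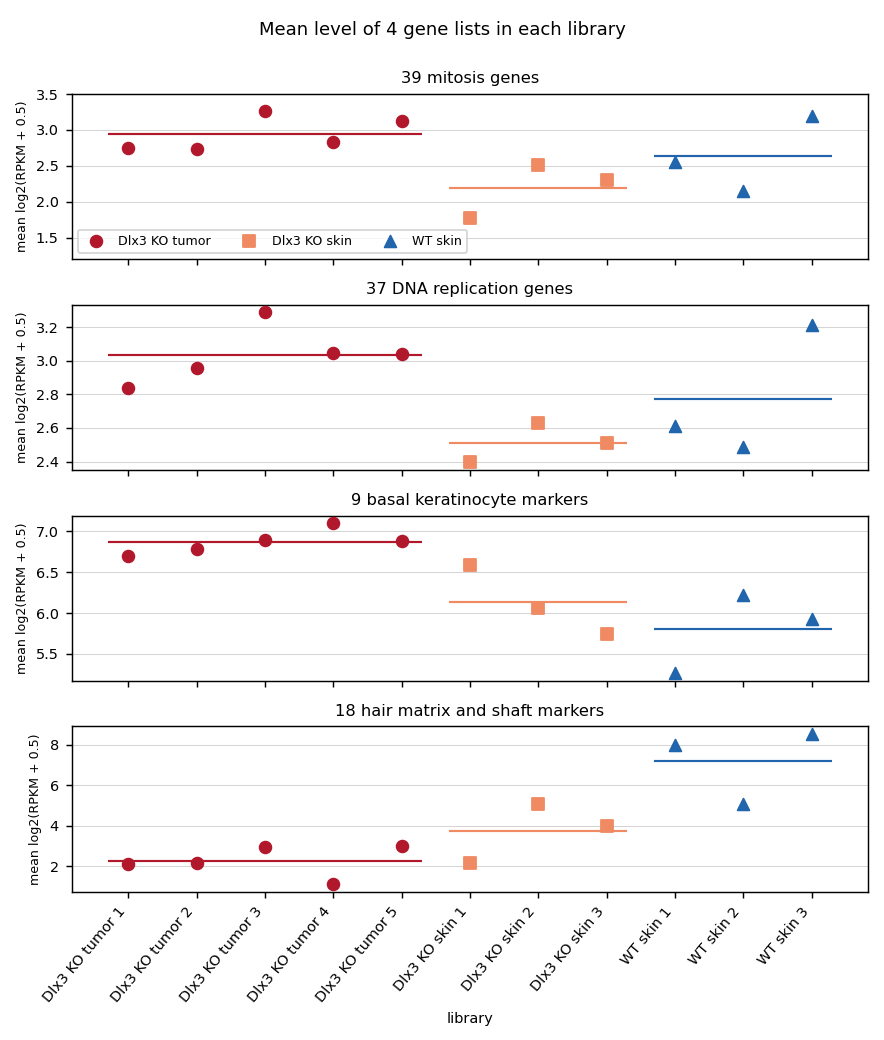
Points give the mean log2(RPKM + 0.5) of a gene list in each library, with Dlx3 KO tumors left, Dlx3 KO skin in the middle and WT skin right. The 39 mitosis genes lie at 2.74 to 3.27 in tumors, 1.77 to 2.51 in Dlx3 KO skin and 2.15 to 3.19 in WT skin. The panel of hair matrix and shaft markers also holds inner root sheath genes.

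Markers of cell types also differed between the groups. Of 9 basal keratinocyte markers, 8 lay higher in tumors than in Dlx3 KO skin and 3 rose (Itga6, Krt14 and Lama3), and none of the 9 was at 0 in any library. The mean log2(RPKM + 0.5) of the 9 markers was 6.69 to 7.10 in tumors, 5.74 to 6.59 in Dlx3 KO skin and 5.26 to 6.22 in WT skin. The mean of the mitosis genes minus that of the basal markers was -4.27 to -3.63 in tumors and -4.82 to -3.44 in Dlx3 KO skin, where the groups overlapped, and -4.07 to -2.71 in WT skin. In Dlx3 KO skin against WT skin, 8 of the 9 basal markers lay higher and Krt15 lower, with a median log2 fold change of 0.29. None of them reached an unadjusted p under 0.05 (limma) or had separate groups, and 56.7% of all genes lay above 0. Of the mitosis genes, 38 of 39 lay below 0 in that comparison, against 43.3% of all genes. Of 7 markers of wound keratinocytes, 1 rose in tumors against Dlx3 KO skin and 7 rose against WT skin. Against WT skin, 3.56% of all genes were called higher and 12.0% lower. Of 9 suprabasal markers, 9 lay lower in tumors than in Dlx3 KO skin and 1 fell. All 10 skeletal muscle markers fell in tumors against Dlx3 KO skin, with summed levels of 29.9 to 583 RPKM in tumors, 5490 to 12320 RPKM in Dlx3 KO skin and 10320 to 18770 RPKM in WT skin, and none was at 0 in any library. Of the markers of other cells, 7 of 8 for adipocytes, 5 of 7 for macrophages and 3 of 5 for melanocytes fell in the same comparison. Over all genes, 0.998% were called higher and 6.56% lower in tumors against Dlx3 KO skin, and 70.3% lay below 0. The part of these cell types in the result was not tested.

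Hair genes stood beside the comparison of the skins. The summed level of 18 hair follicle genes was 34.4 to 239 RPKM in tumors. It was 99.7, 1029 and 459 RPKM in Dlx3 KO skins 1 to 3. In WT skins 1 to 3 it was 8514, 930 and 11590 RPKM. The list joins genes of the hair matrix and shaft with Krt25, Krt27, Krt71, Krt73 and Tchh of the inner root sheath. Of the sum in WT skin 3, Krt71 alone made 2735 RPKM. All 18 lay lower on average in Dlx3 KO skin, 14 of them at an unadjusted p under 0.05 and none past the adjusted threshold (limma), and none was at 0 in any library. Over all genes, 43.3% lay lower in Dlx3 KO skin, and 3.41% were lower at an unadjusted p under 0.05 (limma). The Dlx3 KO skin lowest in hair genes, skin 1, was also lowest in mitosis genes, and the same held for the library labelled WT skin 2 in its group. The part of the hair follicle in the result was not tested.

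Other genes of cell division were read from wider lists. Of 82 further mitosis genes tested, 74 lay higher in tumors than in Dlx3 KO skin and 6 rose (Nsl1, Spc24, Trip13, Tacc3, Incenp and Ckap2), with a median log2 fold change of 0.55, where 0.998% of all genes were called higher. Of the 11 fits that left out a library, 5 kept the call of Nsl1, 4 those of Spc24 and Tacc3, and 3 those of Trip13, Incenp and Ckap2. Spc24, the partner of Ndc80 and Nuf2 in their complex, had 17.7, 42.3, 35.3, 26.6 and 45.7 RPKM in tumors 1 to 5, against 12.1, 17.1 and 11.8 RPKM in Dlx3 KO skins 1 to 3 and 33.0, 29.8 and 20.03 RPKM in WT skins 1 to 3. The tumors were separate from Dlx3 KO skin and overlapped with WT skin, and the log2 fold change against Dlx3 KO skin was 1.21 ± 0.31 (SE), with an adjusted p of 0.0387 (limma, Benjamini and Hochberg). Incenp, the scaffold of the passenger complex that holds Birc5 and Cdca8, had a log2 fold change of 0.90. Against WT skin, 62 of the 82 (75.6%) lay higher in tumors, against 38.4% of all genes, and none was called (limma). At an unadjusted p under 0.05 (limma), 8 were higher (9.76%) and 1 lower (1.22%), against 7.76% and 21.8% of all genes. In Dlx3 KO skin, 75 of the 82 (91.5%) lay below WT skin, against 43.3% of all genes, and none was called (limma). At an unadjusted p under 0.05 (limma), 7 were lower (8.54%) and 0 higher, against 3.41% and 5.22% of all genes.

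All 37 DNA replication genes, which act in S phase before mitosis, lay higher in tumors than in Dlx3 KO skin, and Ccne1, Tk1 and Rrm2 rose. Over all genes, 29.7% lay higher and 0.998% were called higher. Leaving out each of the 11 libraries in turn, Ccne1 stayed called in 11 fits, Tk1 in 4 and Rrm2 in 3, and Ccne1 against WT skin in 6. Ccne1 (cyclin E1), which drives entry into S phase, had 3.49, 7.12, 11.7, 7.05 and 6.01 RPKM in tumors 1 to 5, against 1.38, 1.54 and 1.88 RPKM in Dlx3 KO skins 1 to 3 and 2.56, 1.71 and 3.94 RPKM in WT skins 1 to 3. Each tumor lay above each Dlx3 KO skin, while WT skin 3 lay above tumor 1. Ccne1 rose by a log2 fold change of 1.77 against Dlx3 KO skin and 1.196 against WT skin, with adjusted p of 0.00856 and 0.0317 (limma, Benjamini and Hochberg). The median over the 37 genes was 0.49 against Dlx3 KO skin and 0.27 against WT skin, and it was -0.28 in Dlx3 KO skin against WT skin.

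Cdc20 activates the anaphase-promoting complex, whose core subunits form another list. Of 15 core subunits and Cdh1, 3 lay higher and 12 lower in tumors than in Dlx3 KO skin, near the shares over all genes (29.7% higher and 70.3% lower), with a median of -0.12 against -0.23 over all genes. None was called (limma), 1 being lower (6.67%) and 0 higher at an unadjusted p under 0.05, against 21.3% and 4.40% of all genes. Against WT skin, Anapc5 fell by 1.16 on the log2 scale, with an adjusted p of 0.0189 (limma, Benjamini and Hochberg), where 12.0% of all genes were called lower. Of 20 transcription factors and cofactors of cell cycle genes, 10 lay higher and 10 lower in tumors than in Dlx3 KO skin, and none was called (limma). At an unadjusted p under 0.05 (limma), 3 were higher (15%) and 2 lower (10%), against 4.40% and 21.3% of all genes. E2f6 and Rbbp4 fell against WT skin, by 1.22 and 0.58 on the log2 scale, 2 of 20 where 12.0% of all genes were called lower. The call of E2f6 was kept in 11 of 11 fits that left out a library, and that of Rbbp4 in 2.

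Foxm1 and Mybl2 activate genes of G2 and M phase. Foxm1 had 3.71, 2.65, 4.05, 3.75 and 4.34 RPKM in tumors 1 to 5, 2.12, 3.21 and 2.84 RPKM in Dlx3 KO skins 1 to 3, and 2.65, 3.28 and 7.07 RPKM in WT skins 1 to 3. WT skin 3 was highest, and the log2 fold change of tumors was 0.38 against Dlx3 KO skin, with an adjusted p of 0.416 (limma, Benjamini and Hochberg). Against WT skin it was -0.11, and it turned to 0.094 with median-ratio scaling. Mybl2 had 2.67, 3.11, 5.74, 3.76 and 4.27 RPKM in tumors 1 to 5, 1.57, 2.28 and 1.67 RPKM in Dlx3 KO skins 1 to 3, and 3.23, 2.26 and 5.22 RPKM in WT skins 1 to 3. Its tumors were separate from Dlx3 KO skin, with a log2 fold change of 0.89 and an adjusted p of 0.0795 (limma, Benjamini and Hochberg).

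The authors' deposited table of comparisons gives for the 39 members a median ratio of 1.82 for tumors over Dlx3 KO skin, 1.26 for tumors over WT skin and 0.715 for Dlx3 KO skin over WT skin. In the authors' deposited table, 39, 35 and 2 of the 39 ratios are above 1 in these comparisons, and 19, 4 and 3 members have a p-value under 0.05. Shares over all genes were not worked out for the authors' ratios and p-values, so these counts have no background beside them. No member has a q-value under 0.05 there, where 561, 2122 and 7 of all 24973 genes do. Cdc20 has a ratio of 2.37 and a q-value of 0.0650 for tumors over Dlx3 KO skin in the authors' deposited table.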

How the data were processed

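RPKM per gene of 11 libraries (single reads of 50 bases) were analysed as deposited. Per the submitters' processing notes, bcl2fastq 2.20.0.422, TopHat2 2.1.1, Bowtie and Partek and the build mm10 were used. Per the file headers, RPKM were computed by the authors with Partek. Counting is not stated to use strand, so overlapping genes on opposite strands cannot be told apart. The authors' deposited ANOVA table gives log2 means, a ratio, a p-value and a q-value per gene and comparison, per the file headers.

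RPKM were transformed to log2(RPKM + 0.5), and genes averaging 0.5 RPKM or more (14233, all 39 members among them) were fitted in 3 groups with limma 3.58.1 in R 4.3.3 (trend and robust). The two-sided p of each comparison was adjusted over all its genes (Benjamini and Hochberg), and called means an adjusted p below 0.05. Without counts per gene, the spread between samples gives the precision. The fit was tested on simulated data with noise independent between genes. The changes added there were larger than any of the members', so the test does not cover changes of the members' size. RPKM are shares of a library, so abundant transcripts move all others.

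The members, lists and tests were chosen with earlier results of these data known. All members could be named, with the called genes of the other lists (at most 6 per comparison) and always Foxm1 and Mybl2. One marker gene is not reported here and was left out of its list. Alternatives covered the pseudocount, the filter, scaling, limma settings, weights per library, run, fits of only the compared groups, a block for replicate number and fits without single libraries. Python 3.11.15 with pandas 2.3.3, numpy 2.4.6 and matplotlib 3.10.9 made tables and figures.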

Additional observations from a re-analysis of the deposited data

Results flagged for a closer look

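One tumor stood far from the other 4 for 4 of 40 values examined in tumors, and chance alone flags about 1 in 20. Tumor 3 was the one apart for Plk1, which it had at 22.7 RPKM while the others lay between 9.34 and 12.0 RPKM. The same tumor held Dlgap5, a spindle protein, at 6.24 RPKM (others 3.25 to 3.87 RPKM) and Prc1 at 17.2 RPKM (others 7.16 to 8.73 RPKM). Cenpf stood apart in tumor 5, where it was at 3.03 RPKM while the other tumors lay between 1.61 and 1.94 RPKM.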

How the results depend on the processing

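The direction of the members' median log2 fold change held under each alternative run. For tumors against Dlx3 KO skin, the count of called members was 1 with no filter on low values and 14 with median-ratio scaling. It was 21 with quantile normalization and 20 with library weights. Library weights called 5969 of 14233 genes in either direction, against 1075 in the reported fit. The count of members was 10 with run as a term (1084 genes called). It was 6 with only the compared groups and 1 without the 2 libraries highest in Rn45s. In the second run alone, chosen after seeing the data, the members' median was 1.199. For tumors against WT skin, the count of called members was 3 with median-ratio scaling or quantile normalization. Over all genes, 2817 and 2834 of 14233 were called with these scalings, against 2208 in the reported fit. The count of members was 0 with no filter (2246 of 23831 genes called) and with the compared groups alone (1493 of 14233). It was also 0 without the 2 libraries highest in Rn45s (1821 of 14233). Leaving out each library gave 0 to 12, 0 to 4 and 0 to 0 called members in tumors against Dlx3 KO skin, tumors against WT skin and Dlx3 KO skin against WT skin, and medians of 0.56 to 0.91, 0.08 (without the library labelled WT skin 2) to 0.59 and -0.71 to -0.15. With single libraries left out, calls over all genes in tumors against WT skin ran from 1308 (without WT skin 3) to 3284 (without tumor 1). With run as a term, the 1 member called in tumors against WT skin was Ndc80 and not Cdkn3. Signs turned in tumors against Dlx3 KO skin for Pbk (-0.17) and Kif4 (-0.053) in the first run alone. Foxm1 in tumors against WT skin turned to 0.094 with median-ratio scaling, 0.23 with quantile normalization, 0.17 with run as a term, and 0.11 in the first run alone. Leaving out each library gave it -0.36 to 0.27 (0.27 without WT skin 3) and Mybl2 -0.11 to 0.42 (-0.11 without the library labelled WT skin 2). The cause was not tested. With replicate number as a block, 1, 0 and 0 members were called in the 3 comparisons. Deviations of same-numbered libraries from their group means correlated at -0.41 to 0.18. Libraries with different numbers were not compared, so these values cannot tell whether equal numbers mark 1 animal. In the fits of 1 run, the group with a lone sample is assumed to vary like the others.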
